A study of Mus musculus with 2 samples.

Results

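10 genes of T cell surface proteins were followed, Cd69, Cd44, Cd5, Cd6, Cd24a, Tfrc, Spn, Selplg, Cd52 and Cd53. The RNA came from CD4 T cells sorted from cultures given antigen, with or without anergic cells in the culture. The genes were taken by gene name among the noncontrol probes of the arrays, which gave 10 of the 24325 named genes, carried by 18 probes. All 10 were among the 13009 named genes that stood well above background on both arrays.

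The co-culture group was fresh spleen cells cultured with as many spleen cells that had earlier met the bacterial superantigen TSST-1 at 0.1 μg/mL and that the labels call anergic. The naive-only group was fresh spleen cells alone, at a higher density of fresh cells than in the co-culture. Both groups came from spleens of female OVA-TCR-Tg mice, whose transgenic T cell receptor recognises ovalbumin (OVA), and both received OVA at 0.1 mg/mL for 24 h before CD4 T cells were taken with a cell sorter. There was 1 array of 1 colour for each group. No difference therefore has a replicate check, no test between groups was possible, and the errors given are technical. Whether the sort parted fresh cells from those given TSST-1, and how many mice were pooled, is not stated in the labels.

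Some of these surface proteins, such as CD69, report how recently and how strongly a T cell was stimulated. CD69 is a C-type lectin-like receptor that appears soon after T cell receptor signalling and pulls the egress receptor S1PR1 off the surface. CD44 binds hyaluronan in the matrix and stays high on memory cells, while CD5 and CD6 are scavenger receptor cysteine-rich proteins that dampen receptor signalling. The transferrin receptor, from Tfrc, brings in the iron that dividing cells need. Spn (CD43) and Selplg (PSGL-1) encode long sialomucins, Cd24a and Cd52 encode very short proteins held by a lipid anchor, and Cd53 encodes a tetraspanin of leukocytes.

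The probe sequences below, each 60 bases and read from the array files, are shown because they bear on which transcripts the values stand for. 3 of them, from Cd6, Cd53 and Tfrc, have listed positions that cover more genome than 60 bases (1257, 1095 and 217 bases on mm9), as a probe split by an intron does. The Cd44 sequences are from 1 probe with a clear signal (probe 1) and from the 2 probes that did not stand well above background on either array (probes 3 and 4). The annotation used here gives no exons of mm9, so exons and UTRs were not assigned. No letters are marked.
Cd44 probe 1, chr2:102654278-102654337, minus strand: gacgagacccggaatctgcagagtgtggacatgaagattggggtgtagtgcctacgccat
Cd44 probe 3, chr2:102677971-102678030, minus strand: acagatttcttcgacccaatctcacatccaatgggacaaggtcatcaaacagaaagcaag
Cd44 probe 4, chr2:102672645-102672704, minus strand: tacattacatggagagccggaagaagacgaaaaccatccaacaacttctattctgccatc
Cd6 probe 2, chr19:10867422-10868678, minus strand: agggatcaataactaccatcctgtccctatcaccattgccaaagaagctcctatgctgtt
Cd53, chr3:106565046-106566140, minus strand: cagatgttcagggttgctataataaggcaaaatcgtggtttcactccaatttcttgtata
Tfrc probe 3, chr16:32624877-32625093, plus strand: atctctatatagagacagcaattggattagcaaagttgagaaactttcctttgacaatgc
Selplg probe 2, chr5:114269206-114269265, minus strand: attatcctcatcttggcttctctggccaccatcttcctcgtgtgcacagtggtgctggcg

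In co-culture Cd69, Cd44 and Cd6 were lower by 2-fold or more, and none of the 10 genes was higher by that much. Of all measured genes, 5.19% were lower by 2-fold or more, and 8.26% were higher. Cd69 stood farthest from zero at 5.84-fold lower, with Cd6 at 2.24-fold and Cd44 at 2.11-fold. Cd44 (-1.07 on the log2 scale) and Cd6 (-1.16) lay just past the 2-fold line and Cd5 (-0.92) just short of it, and all 3 were nearer to the line than their technical error of 0.20. Differences were negative for 5 members (Cd69, Cd6, Cd44, Cd5 and Cd24a) and positive for the other 5 (Tfrc, Spn, Selplg, Cd52 and Cd53). The median over the 10 was -0.15, against -0.04 over all measured genes. By each gene's brightest probe, all 10 differences were larger than their technical error, and 6 were larger than 2 errors. Other probes of Tfrc and Spn lay within their error. The median technical error of all measured genes was also 0.20, and their quartiles (-0.37 and 0.34) lay beyond it. Differences past 1 error were therefore common among all genes, and their share past 1 or 2 errors was not counted. The counts of members past 1 and 2 errors therefore do not set the members apart. The 6 members also lay outside this interquartile range, which by definition leaves out as many genes as it holds.

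**Figure D1:**
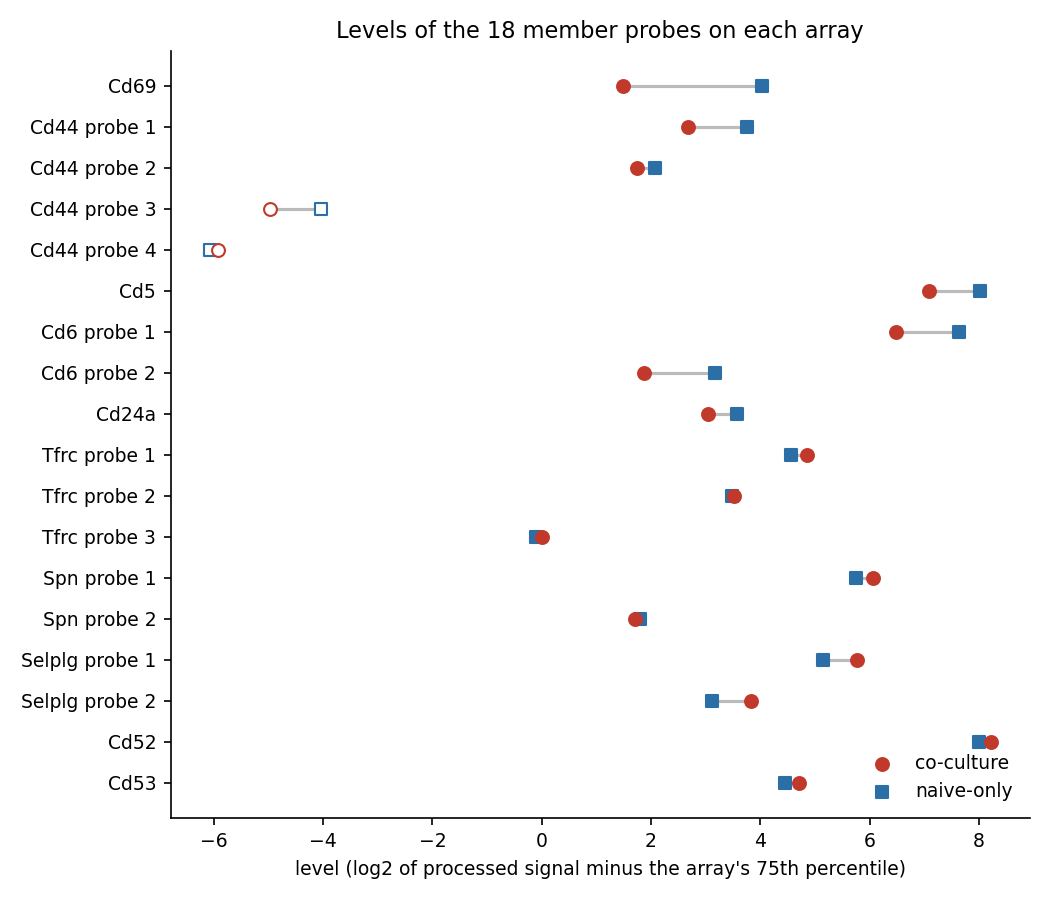
Level of each of the 18 probes on the co-culture array (circles) and the naive-only array (squares), as log2 of processed signal minus the array's 75th percentile, on the x axis. Open symbols mark the 2 Cd44 probes not well above background on either array; levels of different probes are not comparable, and a reader should look at the gap within each line, widest for Cd69 among the filled symbols.

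CD69 is the early activation receptor of the set. The Cd69 probe (chr6:129217697-129217756, minus strand, mm9) had a processed signal of 841 on the co-culture array and 4878 on the naive-only array. In levels relative to each array's 75th percentile these were 1.48 on the co-culture array and 4.03 on the naive-only array (log2). The difference was -2.55 ± 0.20 (technical error, 1 array per group), 12.5 times its error in size. This error is modelled by the scanner software and was 0.20 for every member's brightest probe. The ratio therefore restates the size of the difference, and no spread between spots exists for this probe, printed in 1 spot. Only 0.700% of the measured genes had a more negative difference, which put Cd69 in place 92 of 13009 from the low end. Both signals were far above local background, 15.2 and 80.6 times its brightness on the co-culture and naive-only arrays.

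Markers of B cells were also lower in co-culture. The 12 B cell markers measured on both arrays were all lower in co-culture by 2-fold or more, with a median of -2.20 and a range from -5.03 to -1.05, and another 3 (Pax5, Blk and Fcrla) stood well above background in naive-only cells alone. With another background correction (normexp), 10 of the 12 were lower by that much. Cd79a, of the B cell receptor, had 368 on the co-culture array and 1237 on the naive-only array (-1.76), and Ms4a1, which encodes CD20, was at -5.03. The summed signal of the 15 genes with a probe was 2989 on the co-culture array and 15629 on the naive-only array. B cells also carry CD69, CD24, CD44, CD52 and CD53, and the part of B cell RNA in the differences of the 10 genes was not tested. With bulk RNA, fewer cells of a type and less RNA per cell cannot be told apart. The sorted cells carried T cell markers throughout. All 10 T cell markers were measured, their summed signal was 404182 on the co-culture array and 298944 on the naive-only array, and their median difference was 0.36, with none past 2-fold. Of these, 7 were positive, among them Cd4 at 0.35 ± 0.20 and Cd3e at 0.37 ± 0.20, and 3 were negative, Cd28 at -0.71, Lat at -0.56 and Cd247 at -0.22. Cd8a, which marks CD8 T cells, was dim, at signals of 67.6 on the co-culture array and 47.0 on the naive-only array. Among dendritic cell markers, Itgax was dim, at 38.5 on the co-culture array and 52.7 on the naive-only array, but 3 of the 7 measured were lower in co-culture by 2-fold or more and 1 was higher, with a median of -0.86. Fscn1, for an actin bundler of mature dendritic cells, had 61.6 on the co-culture array and 1446 on the naive-only array. The summed signal of that list was 62447 on the co-culture array and 53388 on the naive-only array. Most of it came from 2 genes, Siglech (45263 on the co-culture array and 48922 on the naive-only array) and Batf3 (16718 and 1463). Batf3 was the only measured gene of the list with a positive difference, and the other 6 were negative. The part of dendritic cell RNA was not tested either.

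CD44, the hyaluronan receptor, was represented by 4 probes, 2 of them measured. Probe 1, printed above, had a signal of 1939 on the co-culture array and 4058 on the naive-only array, a difference of -1.07 ± 0.20. Probe 2 (chr2:102651398-102651457), 2880 bases farther along in the direction of transcription, had 1008 on the co-culture array and 1266 on the naive-only array, a difference of -0.34 ± 0.20. Both were lower on the co-culture array, but their differences stood 0.74 apart, 2.55 times the combined technical error of 0.29. When the probes were averaged, Cd44 was at -0.71 and was no longer past 2-fold.

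Probes 3 and 4 of Cd44, at 23.7 and 18.4 kb upstream of probe 1, were near background on both arrays. Probe 3 had a signal of 9.57 on the co-culture array and 18.2 on the naive-only array, and probe 4 had 4.94 on the co-culture array and 4.44 on the naive-only array. Before background subtraction, the spots of probe 3 were 1.25 times as bright as their surroundings on the co-culture array and 1.44 times on the naive-only array. Those of probe 4 were 0.984 times as bright on the co-culture array and 1.13 times on the naive-only array. No fold change is given for either. As background, Cd44 is known for a block of variable exons that only some of its transcripts include; whether probes 3 and 4 lie in that block was not annotated here.

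CD5 and CD6, both inhibitory co-receptors, are encoded by neighbouring genes, and their probes lay 71.1 kb apart on chromosome 19. Cd5 (chr19:10792701-10792760, minus strand) had a signal of 41133 on the co-culture array and 77564 on the naive-only array, a difference of -0.92 ± 0.20. Cd6 probe 1 (chr19:10863829-10863888) had 26841 on the co-culture array and 59724 on the naive-only array, a difference of -1.16 ± 0.20. Cd6 probe 2, whose listed position covers 1257 bases, had 1103 on the co-culture array and 2690 on the naive-only array, at -1.30 ± 0.20. The probes of Cd6 differed by 0.13, less than their combined technical error of 0.29. Only 3.94% of measured genes were lower than Cd6 and 6.12% were lower than Cd5.

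**Figure D2:**
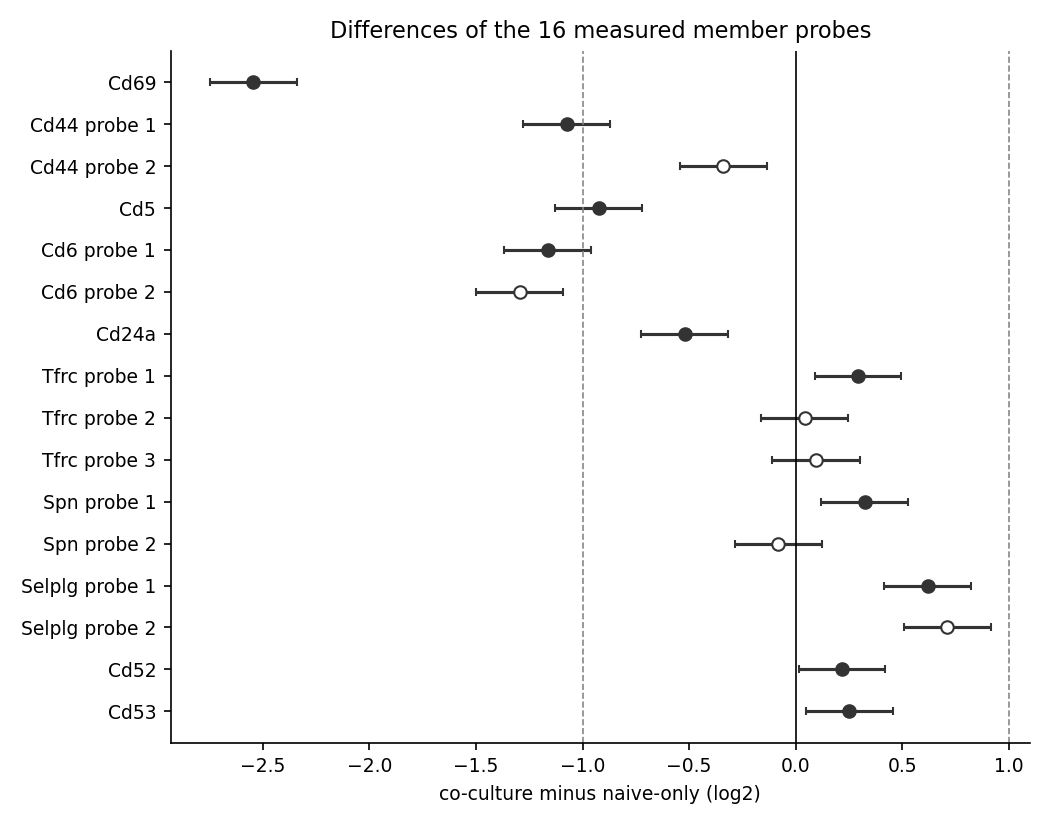
Log2 difference, co-culture minus naive-only, of the 16 probes measured on both arrays, with bars for the scanner software's technical error; filled points are the probe that stands for each gene and dashed lines mark 2-fold. Cd69, Cd44 probe 1 and both probes of Cd6 lie left of the 2-fold line, whereas all Selplg, Tfrc, Cd52 and Cd53 points lie right of zero.

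Cd24a, whose protein is a short heavily glycosylated ligand of sialic acid-binding lectins, was 1.43-fold lower. Its probe (chr10:43303706-43303765, plus strand) had a signal of 2488 on the co-culture array and 3547 on the naive-only array, a difference of -0.52 ± 0.20. The mouse genome holds processed copies of Cd24a, and the single probe may read more than this gene. CD24 is abundant on B cells, whose markers were lower on the same array by a median of -2.20. The part of B cell RNA in the Cd24a difference was not tested. Of the measured genes, 16.8% were lower than Cd24a.

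Tfrc, for the transferrin receptor, was nearly level between the arrays. Its brightest probe (chr16:32632255-32632314, plus strand) was printed in 10 spots, whose signals ran from 8185 through a median of 8689 to 9482 on the co-culture array and from 6571 through 7064 to 7594 on the naive-only array. The spots of the arrays did not overlap, and repeated spots varied with an SD of 0.060 and 0.070 (log2) on the co-culture and naive-only arrays. Spots share 1 RNA and measure printing noise only. The difference was 0.29 ± 0.20, or 1.23-fold. Probe 2 (chr16:32620470-32620529) gave 3450 on the co-culture array and 3327 on the naive-only array, at 0.04 ± 0.20, and probe 3 gave 301 on the co-culture array and 280.0 on the naive-only array, at 0.09 ± 0.21. All 3 were positive, and none of the pairs of probes differed by more than its combined error of 0.29.

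Among the sialomucins, Selplg was higher on the co-culture array by both of its probes. Selplg encodes the main selectin ligand of T cells. Probe 1 (chr5:114267807-114267834, a listed position that places 28 of its 60 bases) had a signal of 16379 on the co-culture array and 10582 on the naive-only array, at 0.62 ± 0.20. Probe 2 had 4261 on the co-culture array and 2585 on the naive-only array, at 0.71 ± 0.20. These are 1.54-fold and 1.64-fold higher, and 85.3% of measured genes were lower than Selplg. Spn, for CD43, an abundant mucin of T cells, had 2 probes that differed in sign. Probe 1 (chr7:134277313-134277372, transcript variant 1 per the file) had 20235 on the co-culture array and 16066 on the naive-only array, at 0.32 ± 0.20. Probe 2 (chr7:134276998-134277057, transcript variant 2) had 988 on the co-culture array and 1038 on the naive-only array, at -0.08 ± 0.20. They lie 315 bases apart, and their differences stood 0.40 apart, 1.40 times the combined error.

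Cd52 and Cd53, both found on most lymphocytes, had the smallest differences in the set by each gene's brightest probe; by the mean over measured probes, Spn (0.12) and Tfrc (0.14) were smaller. Cd52 (chr4:133649505-133649564, minus strand) had 89680 on the co-culture array and 76621 on the naive-only array, at 0.22 ± 0.20. Cd53, by the probe printed above, had 7885 on the co-culture array and 6581 on the naive-only array, at 0.25 ± 0.20. These are 1.16-fold and 1.19-fold higher, barely beyond the technical error, and both lie below the third quartile of all measured genes at 0.34. No member spot was saturated or marked as an outlier on either array.

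**Figure D3:**
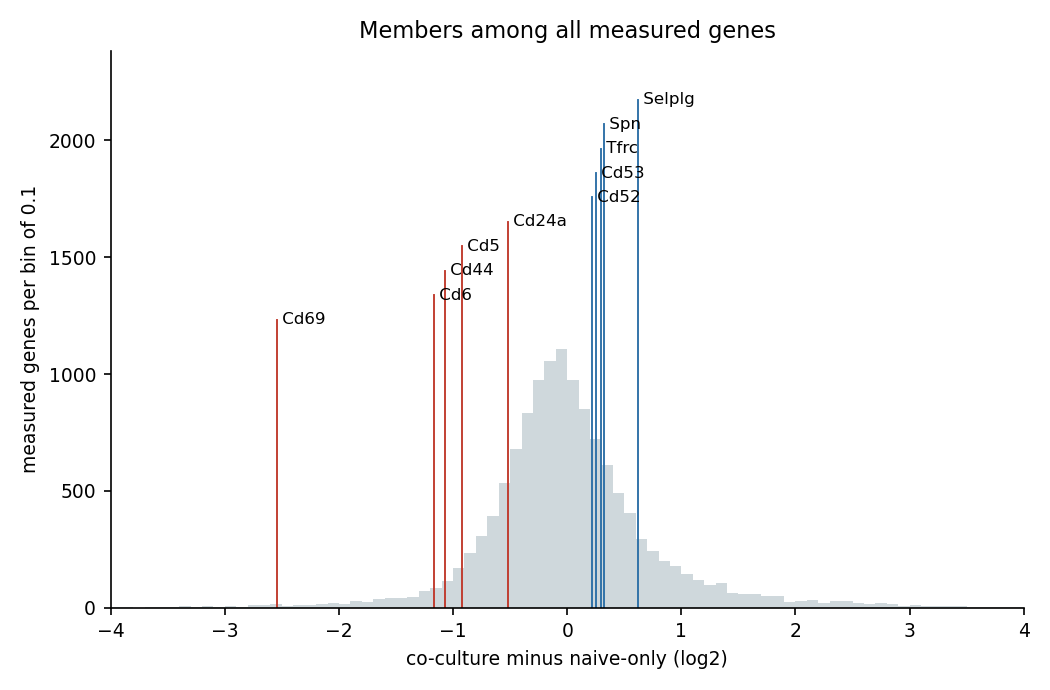
Histogram of the log2 difference, co-culture minus naive-only, over the 13009 measured genes, with a line for each of the 10 members (red below zero, blue above); 32 genes beyond 4 in size are not drawn. Cd69 stands in the sparse left tail, Cd6, Cd44 and Cd5 at the edge of the main body, and Tfrc, Spn, Cd52 and Cd53 inside it.

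Genes that act with each member were set beside it. For Cd69 the list held its S1PR1 partner and that receptor's inducer Klf2, the CD98 amino acid transporter that CD69 binds, other bound proteins, neighbouring lectin genes and early response transcription factors. Of its 18 genes 16 were measured, 6 of them lower by 2-fold or more and 1 higher, with a median of -0.57. S1pr1, the egress receptor, was lower together with Cd69, at signals of 205 on the co-culture array and 531 on the naive-only array (-1.38 ± 0.21). Klf2, a factor that drives S1pr1 in quiescent T cells, had 763 on the co-culture array and 1555 on the naive-only array (-1.04 ± 0.20), and fell just short of 2-fold, at -0.99, when arrays were scaled on their median or on probes above background. The lectin-like receptor gene Klrb1f (-2.99, and -1.77 with normexp) and the early response factors Jun (-1.57) and Nr4a1 (-1.15), itself a reporter of receptor signalling, were lower as well, while 6 of the list's 16 measured genes were positive. Both CD98 subunit genes were positive, Slc7a5 at 0.86 and Slc3a2 at 0.79. Lgals1, for galectin-1, a binding partner of CD69, was the 1 gene of the list higher by 2-fold or more, at 3.22, with a signal of 101062 on the co-culture array and 10788 on the naive-only array.

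The CD44 list joined hyaluronan enzymes, receptors and the ERM proteins that tie CD44 to actin. Of 20 genes 8 were measured, 2 higher by 2-fold or more and 1 lower, with a median of 0.11. Hmmr, which binds hyaluronan and the mitotic spindle, was at 3.45, with 4810 on the co-culture array and 437 on the naive-only array. Itga4, for an integrin subunit, was at 1.40, and the hyaluronidase gene Hyal2 at -1.02, which fell short of 2-fold under 4 of 7 other settings. The hyaluronan synthase gene Has1 did not stand well above background in either group. The ERM genes Ezr and Msn were at 0.87 and -0.14. For CD5 and CD6, 14 of 19 ligand, adaptor and family genes were measured and all 14 stayed within 2-fold, between -0.31 and 0.68, with a median of 0.16. Alcam, the ligand of CD6, was at 0.50 ± 0.20.

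The glycosylation list covered enzymes that build selectin-binding sugars on PSGL-1 and CD43, and the selectins. Of 20 genes 19 were measured, 2 lower by 2-fold or more and none higher, with a median of -0.15. The lower pair was the sulphotransferase gene Chst2 (-2.29) and the sialyltransferase gene St3gal6 (-1.59). Fut7, the fucosyltransferase that completes the selectin ligand, was at 0.99, with 2396 on the co-culture array and 1198 on the naive-only array, and its other probe gave 0.95. It passed 2-fold when arrays were scaled on their median or on probes above background. Gcnt1, which starts the branch that carries it, was at 0.75 by 1 probe and -0.07 by the other.

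Of 21 iron genes with a probe, 16 were measured, 2 higher by 2-fold or more and none lower, with a median of -0.25. These were Lcn2 (1.29), for a binder of bacterial iron carriers, and Hmox1 (1.18), for the enzyme that frees iron from haem. Fth1, the ferritin heavy chain gene, was at -0.30, and the exporter gene Slc40a1 did not stand well above background in either group. All 15 tetraspanin genes were measured, 2 higher (Tspan4 at 1.16, and Tspan32 at 2.15-fold), 1 lower (Tspan33 at -2.23), with a median of -0.29. The other probes of Tspan32 gave -0.30 and 0.90, and the mean over its probes was 0.57. Cd37, Cd81 and Cd82, tetraspanins well known from lymphocytes, stayed within 2-fold. Cd37 had 2974 on the co-culture array and 2956 on the naive-only array, Cd81 was at -0.60 and Cd82 at -0.33.

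Among partners of CD24 and other lipid-anchored proteins, 13 of 16 genes were measured, 1 higher (Bst1 at 1.88) and 1 lower (Siglecg at -1.45), with a median of 0.16. Siglecg encodes a lectin of B cells that binds CD24, and its signals were dim, at 33.1 on the co-culture array and 89.7 on the naive-only array. With normexp background correction it was no longer past 2-fold. The anchored proteins of T cells Thy1 and Cd48 were at 0.63 and 0.04. A last list held other surface markers of activated T cells, and all 20 were measured, 5 higher by 2-fold or more and 6 lower, with a median of -0.09. Cd70 (-4.61), Cd40lg (-2.20) and Cd38 (-1.43) were lower, whereas Lag3 (1.53) and Pdcd1 (1.42), which encode inhibitory receptors, were higher. On the co-culture array Cd70 and Cd40lg were dim, at signals of 42.9 and 49.8. With only the brighter genes kept, 5 genes of the list were counted higher and 2 lower. Il2ra, the high-affinity interleukin 2 receptor chain, was at 0.51 ± 0.20, with 61359 on the co-culture array and 42712 on the naive-only array.

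**Figure D4:**
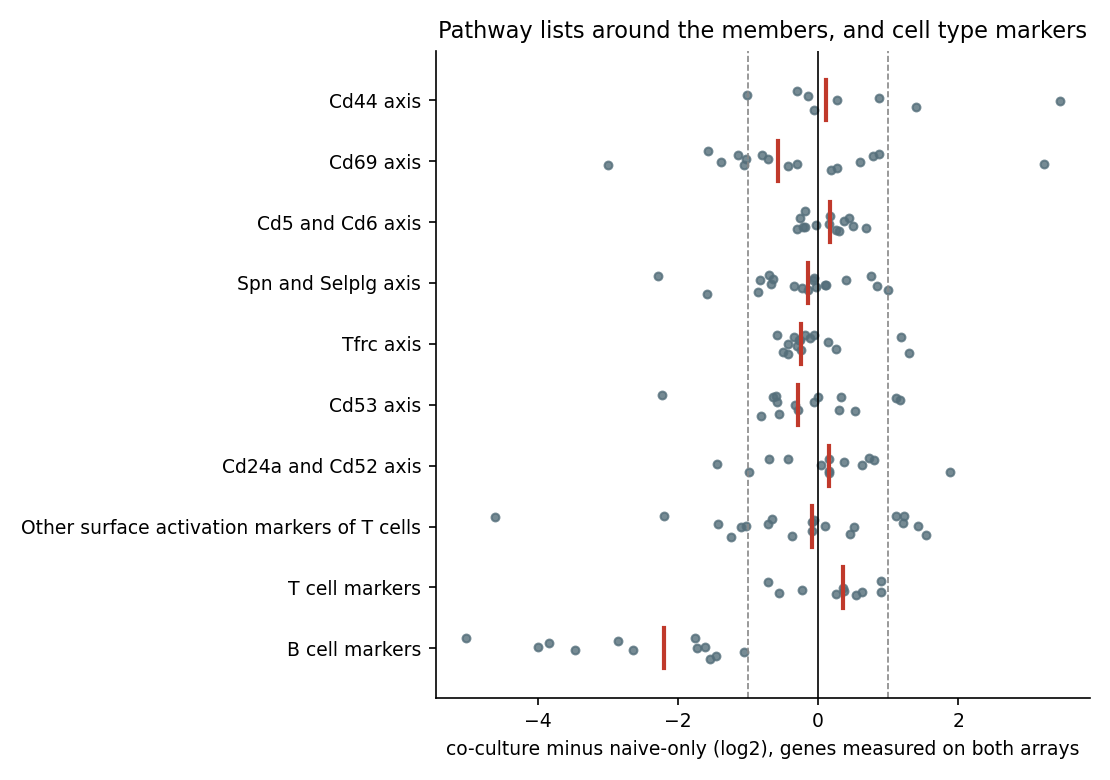
Log2 difference, co-culture minus naive-only, of every measured gene in the 8 lists around the members and in the T cell and B cell marker lists; each point is a gene, red bars are medians and dashed lines mark 2-fold. The B cell markers lie wholly left of -1, the CD5 and CD6 list wholly between the dashed lines, and the Cd69 list has its median at -0.57.

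Promoters are shown for Cd5 and Cd44, because these are the members lower on the co-culture array for which RefSeq entries (GRCm38.p6) were at hand; 5 of the 10 genes had an entry. Each is the 250 bases before the listed start, on the minus strand. Capitals mark matches on either strand to GGAAGT, the Ets core used here, or GGAAAA, the NFAT core used here. In the same window of all 32851 promoters, 19.7% held the first and 20.4% the second, so 1 match in a promoter is common. Neither promoter held the AP-1 letters TGANTCA (6.75% of all promoters). Cd5 and Cd44 each held 1 match in all.
Cd5 promoter, chr19:10738975-10739224: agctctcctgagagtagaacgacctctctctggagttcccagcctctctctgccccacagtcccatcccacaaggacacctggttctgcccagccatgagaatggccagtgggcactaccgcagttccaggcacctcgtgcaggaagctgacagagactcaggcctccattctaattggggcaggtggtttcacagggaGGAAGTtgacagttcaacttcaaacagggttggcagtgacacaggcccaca
Cd44 promoter, chr2:102901666-102901915: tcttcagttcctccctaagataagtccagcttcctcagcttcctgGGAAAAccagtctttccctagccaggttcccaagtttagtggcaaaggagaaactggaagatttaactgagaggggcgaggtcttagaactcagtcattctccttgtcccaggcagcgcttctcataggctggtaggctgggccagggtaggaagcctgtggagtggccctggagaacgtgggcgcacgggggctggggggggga

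The differences of the members changed little with the way the arrays were processed. Several settings could hardly have moved them. Rescaling an array, or leaving out marked spots, shifts all members by the same small amount, and averaging probes cannot change a gene with 1 measured probe. Under 7 distinct other settings every member kept its sign, Cd69 ranged from -2.55 to -2.42, Cd6 from -1.23 to -1.08 and Cd5 from -0.97 to -0.86. Cd44 ranged from -1.08 to -0.71, the end nearer zero being the mean of its probes.

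**Figure D5:**
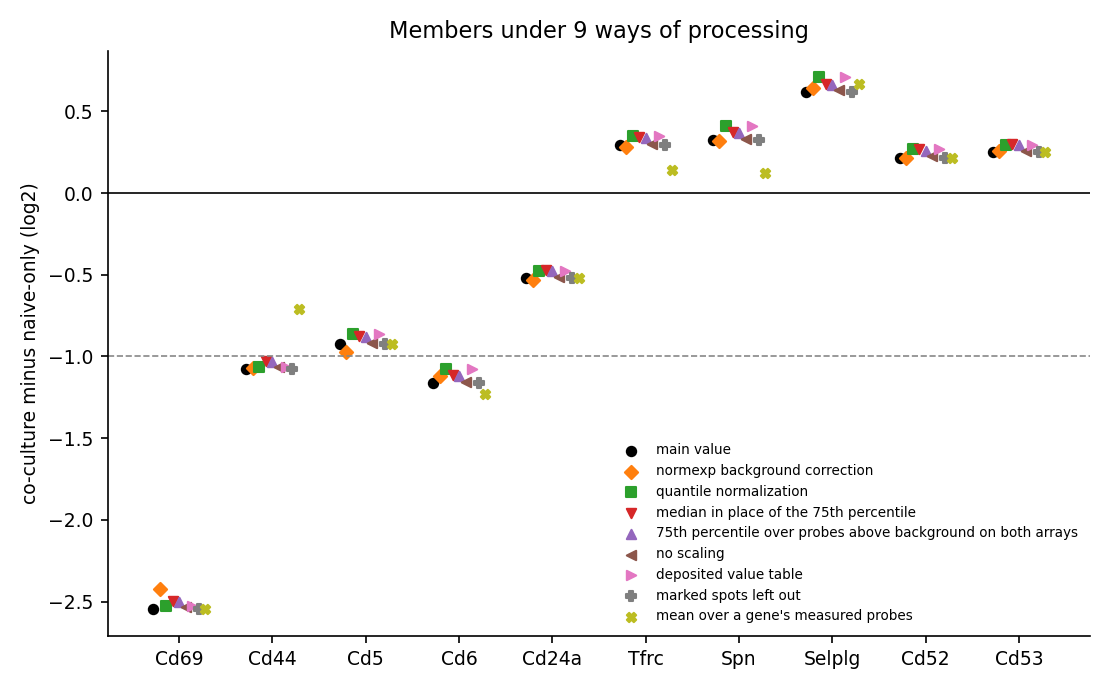
Log2 difference, co-culture minus naive-only, of each member under the main setting and 8 others, 1 symbol per setting, of which quantile normalization and the deposited table coincide; the dashed line marks 2-fold lower. Symbols of a gene overlap closely except for Cd44, Tfrc and Spn, where the mean over a gene's probes lies nearer zero.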

How the data were processed

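RNA of sorted CD4 T cells was measured on 1 array per group. RNA was amplified to cDNA with a NuGEN Ovation kit and carried Cy3, per the labels' protocols, and amplification can alter relative levels. Per the file headers, the deposited intensity of each spot comes from Agilent's Feature Extraction software, version 10.7.1.1; version 9.5.1.1 stands in the submitters' processing notes. The processed intensity is background-subtracted and linear, with an error from the software's model. The authors also deposited a normalized intensity table, whose log2 differences correlated with those of the scanner values at 0.999 across probes above background (probes are not independent replicates). It equals the quantile normalization of the processed signals computed here, at all 55681 probes, with a median of 14.5 in both columns, and was not counted as a separate setting.

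The level of a probe is its mean log2 processed signal, less the 75th percentile of the 55681 noncontrol probes on that array (301 and 299 intensity units on the co-culture and naive-only arrays). Naive-only levels were subtracted from co-culture levels. The brightest probe stood for a gene, which was taken as measured if the software called that probe well above background in both groups. Probes named only by an accession or interval were not used as genes; 33184 had a gene name, of which 27235 matched RefSeq by accession. No p-value was computed. Members are named whatever their value. From each of 8 pathway lists up to 5 genes past 2-fold were named by size, beside a set of genes named whatever their value, some of which are not reported here. Members and 18 lists were chosen with earlier results of these data known. Tools were Python 3.11.15, numpy 2.4.6, pandas 2.3.3, matplotlib 3.10.9, R 4.3.3 and limma 3.58.1 (normexp). The scripts were tested on simulated data.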

Additional observations from a re-analysis of the deposited data

How the results depend on the processing

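The 10 members' differences were recomputed under 8 other settings, 7 of them distinct since the deposited table equals quantile normalization, and kept their sign in each. Settings that only rescale an array could hardly have changed a sign. Averaging a gene's measured probes put Cd44 at -0.71, which left 2 members at least 2-fold lower in place of 3; its probes themselves gave -1.07 and -0.34. Under the remaining settings, and with no filter on dim probes or with only the brighter genes, 3 members were at least 2-fold lower and none was higher. The members' median ran from -0.20 with averaged probes to -0.10 with each array's median as the scale. Over all genes, 1074 were higher and 675 lower by 2-fold or more; these counts were 777 and 444 with normexp, 2272 and 1781 of 24325 with no filter on dim probes, and 356 and 179 of 6504 among brighter genes. With no such filter, the median of all genes was 0.11. Of 360 counts over the lists, with that repeated setting included, 39 moved by more than 1.5 times, 20 of them when only the brighter genes were kept, a setting that tests fewer genes; 1 B cell marker was then counted lower in place of 12. No paired analysis was possible because each group has 1 array. The number of arrays limits every comparison.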

Other observations

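Markers of other cell types differed in both directions; the genes given here were named after their values were seen. A fold given as at least sets a gene's level against the lowest level well above background on the other array, or its own level there if that is higher. Of 5 natural killer cell markers measured, the granule genes Gzma (1.80) and Prf1 (1.56), which activated T cells also express, were higher, while the adaptor genes Tyrobp (-1.50) and Fcer1g (-1.25) were lower, and Ncr1 and Klra8 stood well above background in naive-only cells alone. Of 6 macrophage and monocyte markers measured, 2 were at least 2-fold lower, Cd14 (-1.71) and Lyz2 (-1.12), and none was higher, with Ms4a7 above background in naive-only cells alone. Of 7 dendritic cell markers measured, 3 were lower, Flt3 (-2.87), Fscn1 (-4.56) and Tcf4 (-1.53), and Batf3 was higher at 3.51; Ccl22 stood well above background in naive-only cells alone and was at least 22.0-fold lower in co-culture. Of 6 plasma cell markers measured, 2 were lower, Jchain (-3.20) and Mzb1 (-1.46), and 2 higher, Prdm1 (1.84) and Xbp1 (1.15). Of 5 erythroid markers measured, 2 were lower, Hba-a1 (-1.09) and Hbb-bt (-1.18), and Epor was higher at 2.42. Of 6 granulocyte markers measured, Ly6g was higher (5.80) and Camp lower (-1.51); Mpo stood above background in co-culture alone, at least 3.95-fold higher, and Ngp in naive-only cells alone, at least 2.89-fold lower in co-culture. Of 4 CD8 T cell markers measured, Klrc1 was higher (3.65) and Eomes lower (-3.84), and Klrd1 stood above background in co-culture alone, at least 4.62-fold higher. None of 3 stromal and endothelial markers measured passed 2-fold, and Col1a2 and Pdgfrb stood well above background in naive-only cells alone.

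Tnfrsf9, which encodes the costimulatory receptor 4-1BB, rests on 2 probes that disagreed, at -0.09 for the brighter and 3.21 for the other.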
